A study of Zea mays with 4 samples.

Results

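The genes described here are ct2, fea2, fea3, fea4 and td1, 5 of the 48174 genes listed in the files, which set meristem size in the maize shoot and ear. They were chosen by NCBI symbol or synonym, with ct2 fixed as GeneID 100284718. The others were fea2 (GeneID 542675), fea3 (GeneID 100216564), fea4 (GeneID 107403067) and td1 (GeneID 103626458). All 5 are annotated as protein-coding, and in NCBI's RefSeq gene table (assembly Zm-B73-REFERENCE-NAM-5.0) no other annotated gene overlaps any of them.

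The samples were the last 1 mm of primary and seminal roots of the maize inbred line B73, from seedlings 3 days after germination, grown at 28 C under constant dim light with no treatment. They form 1 group of 4 biological replicates, with no second genotype, tissue or condition. Primary and seminal tips were not labelled separately, and the labels do not state how many seedlings a replicate holds. Total RNA depleted of ribosomal RNA was sequenced with strand-specific libraries, and the purpose stated was to profile the steady-state transcriptome of the tip.

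In CLAVATA-type signalling, small secreted CLE peptides are sensed at the cell surface by receptors with leucine-rich repeats, and the signal restrains WUSCHEL-type homeobox genes that maintain stem cells. td1 encodes a receptor kinase that is the maize counterpart of Arabidopsis CLAVATA1. fea2 encodes a receptor-like protein without a kinase domain, the counterpart of CLAVATA2, and fea3 encodes another leucine-rich repeat receptor-like protein. ct2 encodes the alpha subunit of the heterotrimeric G protein, which acts with FEA2. fea4 encodes a bZIP transcription factor of the TGA class, related to Arabidopsis PERIANTHIA. Mutants of these genes are known for enlarged or fasciated shoot and inflorescence meristems.

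The root tip libraries held reads of all 5 genes, but at levels that spanned from 0.443 ± 0.172 CPM for td1 to 43.7 ± 3.45 CPM for ct2 (SD, n = 4). CPM is a gene's count per 1000000 counts of its library. No transcript length was used here, so every level below refers to reads rather than molecules, and longer transcripts give more reads. In a bulk sample, fewer cells that express a gene and less RNA per cell cannot be told apart.

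Library totals ran from 9168900 counts in replicate 2 to 14728797 in replicate 1. The detection limit, set at 3 counts, was 0.204 to 0.327 CPM for 1 library and 0.0584 CPM for the 4 libraries together, and covers counting error only. The tissue label was checked against marker genes. The root cap genes RCP1 and RCP2 stood at 201 ± 37.2 and 162 ± 17.7 CPM, and the clamp genes PCNA and pcna2 of dividing cells at 273 ± 16.5 and 199 ± 10.6 CPM. The root hair gene rth3 stood at 65.6 ± 3.09 CPM and the endodermis gene SCR at 15.3 ± 2.13 CPM. The leaf Rubisco gene rbcs1 and all 3 endosperm markers had no count, and the leaf gene CAB1 had 33 counts. Of the other leaf genes on the list, me3 stood at 5.83 ± 0.447 CPM and Ppdk1 at 60.0 ± 20.6 CPM. kn1, the defining homeobox gene of the shoot meristem, had 15 counts over the 4 libraries.

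The receptor gene with the most reads was fea2. Its counts were 179, 93, 169 and 180 in replicates 1 to 4, or 12.2, 10.1, 12.2 and 13.2 CPM, with a mean of 11.9 ± 1.29 CPM. The lowest value came from replicate 2, the smallest library, and the other 3 lay close together. fea2 stood near the middle of the transcriptome, above 43.7% of the expressed protein-coding genes in reads.

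fea3 had 83, 73, 80 and 93 counts, which is 5.64, 7.96, 5.79 and 6.83 CPM, with a mean of 6.55 ± 1.08 CPM. Here replicate 2 was the highest library, so fea2 and fea3 were nearest to each other there. fea3 lay above 27.6% of the expressed protein-coding genes.

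td1 was close to the detection limit. Its counts were 3, 5, 6 and 8, or 0.204, 0.545, 0.434 and 0.587 CPM, and replicate 1 held no more reads than the 3 counts of the limit. The 22 counts pooled over the libraries gave 0.429 CPM, with an exact Poisson 95% interval of 0.269 to 0.649 CPM that covers counting error only. A count in each of the 4 libraries shows that reads were assigned to td1, but the gene did not pass the expression filter (edgeR's filterByExpr, minimum count 10) and was not tested in the main fit.

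The G protein subunit gene ct2 had the most reads of the 5. Its counts were 651, 442, 586 and 545, which is 44.2, 48.2, 42.4 and 40.0 CPM. The libraries differed by no more than 1.20-fold. ct2 lay above 79.2% of the expressed protein-coding genes.

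The transcription factor gene fea4 had 63, 49, 55 and 55 counts, or 4.28, 5.34, 3.98 and 4.04 CPM, with a mean of 4.41 ± 0.636 CPM. Replicate 2 was the highest and the other 3 libraries were close together. fea4 lay above 18.9% of the expressed protein-coding genes.

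**Figure D1:**
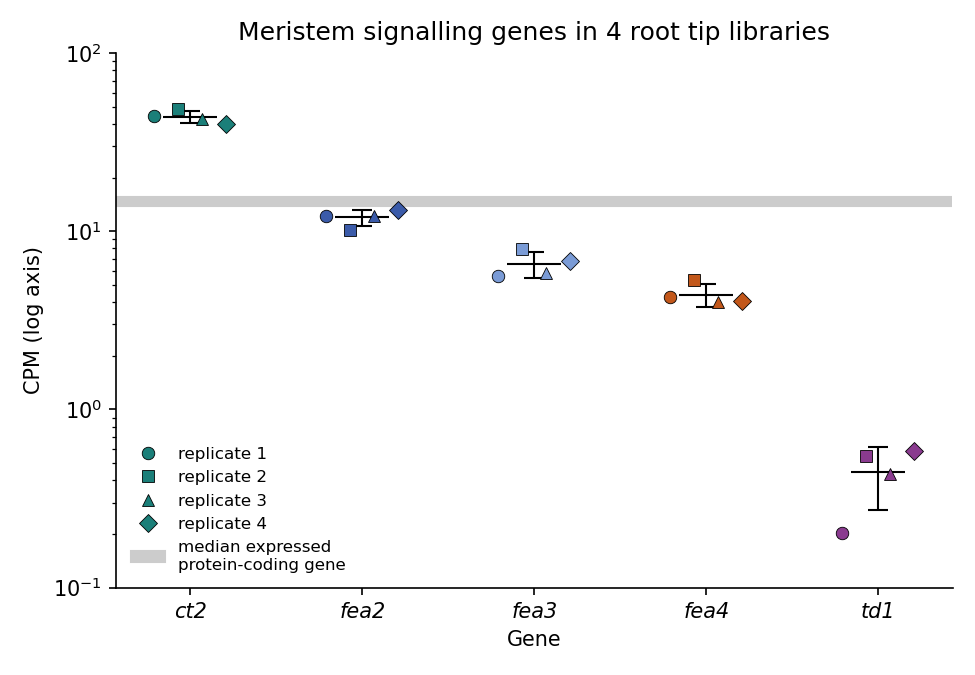
CPM of each gene on a log axis in the 4 root tip libraries, with 1 marker shape for each replicate, and the mean and SD as black lines. The grey band spans the median expressed protein-coding gene of the 4 libraries: every ct2 value lies above it, and every value of the other 4 genes lies below it.

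Reads per library put the genes in the order ct2, fea2, fea3, fea4 and td1, and this order held in each of the 4 libraries. Between neighbours, ct2 exceeded fea2 by 1.88 ± 0.27 on the log2 CPM scale (mean and SD of the difference within libraries), a 3.67-fold difference in reads. fea2 exceeded fea3 1.83-fold, with a range over libraries from 1.27-fold in replicate 2 to 2.16-fold. The smallest step was that from fea3 to fea4, a log2 difference of 0.57 ± 0.15, or 1.48-fold, with a range from 1.32-fold to 1.69-fold. fea4 exceeded td1 by 3.42 ± 0.69, with a range from 6.88-fold to 21.0-fold, and the upper end rests on the 3 td1 counts of replicate 1.

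Every one of these 4 steps was larger than its SD between libraries. The CPM values of fea3 and fea4 did not overlap, although the lowest fea3 value, 5.64 CPM, was near the highest fea4 value, 5.34 CPM. All 10 pairs of genes had the same sign in 4 of 4 libraries, for which the exact two-sided sign-flip permutation test gives p = 0.13 (also 0.13 when adjusted over the 10 pairs), the smallest p that 4 libraries allow. These are differences in reads, and whether the same order holds per transcript length was not tested.

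Each gene was then set against the median expressed protein-coding gene of the same library, which stood at 13.9 to 15.5 CPM. The test was an F test calculated from edgeR's quasi-likelihood fit, against a 2-fold difference in reads in either direction. Benjamini-Hochberg adjustment ran over all 21046 expressed genes. Of the 5 genes, 4 passed the expression filter, which 57.6% of all protein-coding genes did. Among these 4, ct2 lay above the median gene, fea4 lay below it, and fea2 and fea3 did neither. Over all genes tested, 25.6% lay above and 27.0% below (52.5% in all), so 1 gene of 4 in each direction is near the background. Of the 19606 protein-coding genes among them, 5204 lay above and 4914 below.

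ct2 had a log2 ratio of reads to the median gene of 1.58 ± 0.08 (SE of the fit), a 2.99-fold excess, with an adjusted p of 9.37e-06 by edgeR. The ratio ran from 1.37 to 1.80 in the 4 libraries. fea4 had a log2 ratio of -1.75 ± 0.13, or 0.298 times the median gene, with an adjusted p of 0.000134 by edgeR, and a range from -1.94 to -1.37. Both calls were kept without any 1 of the 4 replicates.

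fea3 was just past the 2-fold line, with a log2 ratio of -1.17 ± 0.12, and did not pass (edgeR, adjusted p = 0.307). Its value was 0.443 times the median gene, and the highest of its 4 libraries, replicate 2, reached a log2 ratio of -0.80. fea2 had a log2 ratio of -0.29 ± 0.09, or 0.817 times the median gene, and lay inside the 2-fold range by its fitted value. Where every gene with a count was kept, the median gene itself became lower, all genes tested in both fits moved up by a median of 0.87 on the log2 scale, the ratio of fea2 turned to 0.57 and the call of fea4 was lost at -0.88. Both ratios moved by the same 0.87 as the median of all genes.

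**Figure D2:**
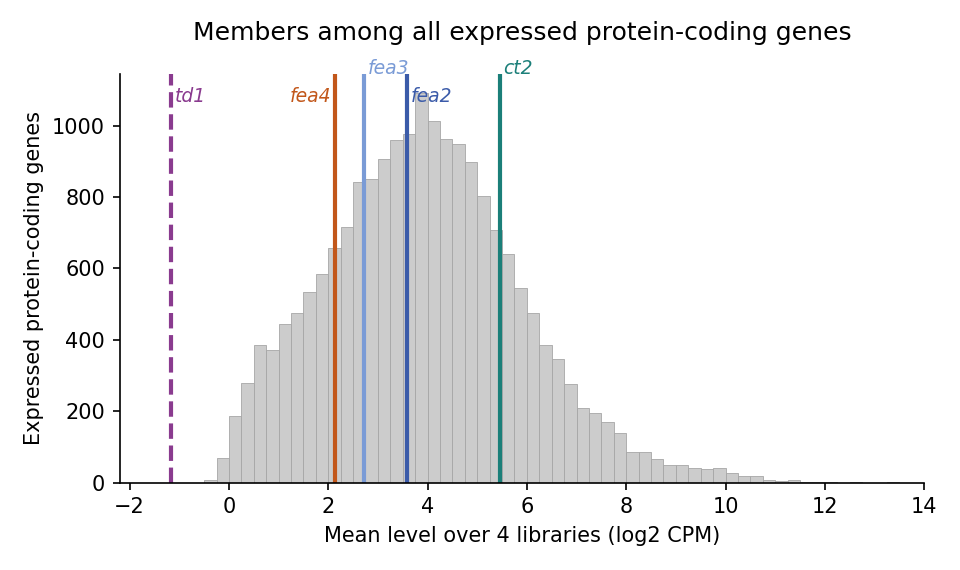
Histogram of the mean level, in log2 CPM over 4 libraries, of the 19606 expressed protein-coding genes, with the mean of each of the 5 genes as a vertical line. ct2 lies in the upper part, fea2 near the middle, fea3 and fea4 in the lower part, and td1 (dashed, not among the expressed genes) to the left of the histogram.

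The spread between libraries of the 4 expressed genes lay on both sides of that of the median gene. The coefficient of variation of CPM was 7.90% for ct2, 10.8% for fea2, 16.4% for fea3 and 14.4% for fea4, against a median of 13.2% over all expressed protein-coding genes. Counting error alone would give 4.30%, 8.22%, 11.1% and 13.5% for the same genes, so the spread of fea4 was 1.07 times and that of ct2 1.84 times the counting error. Over all expressed protein-coding genes the median of this ratio was 1.71. td1 varied by 38.8%, less than the 42.7% that its few counts give by themselves.

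The coefficient of variation fell most without replicate 2 for ct2, fea2, fea3 and fea4, and without replicate 1 for td1. These libraries were picked by their values, and leaving out the most extreme of 4 values tends to lower this figure for any gene. The same was not computed over all genes. Without replicate 2 the coefficient of variation was 4.98% for ct2, 4.71% for fea2, 10.6% for fea3 and 3.83% for fea4, and without replicate 1 that of td1 was 15.1%. Replicate 2 had the fewest counts of the 4 libraries, and the part of depth in these differences was not tested. It was the highest library for ct2, fea3 and fea4 and the lowest for fea2.

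**Figure D3:**
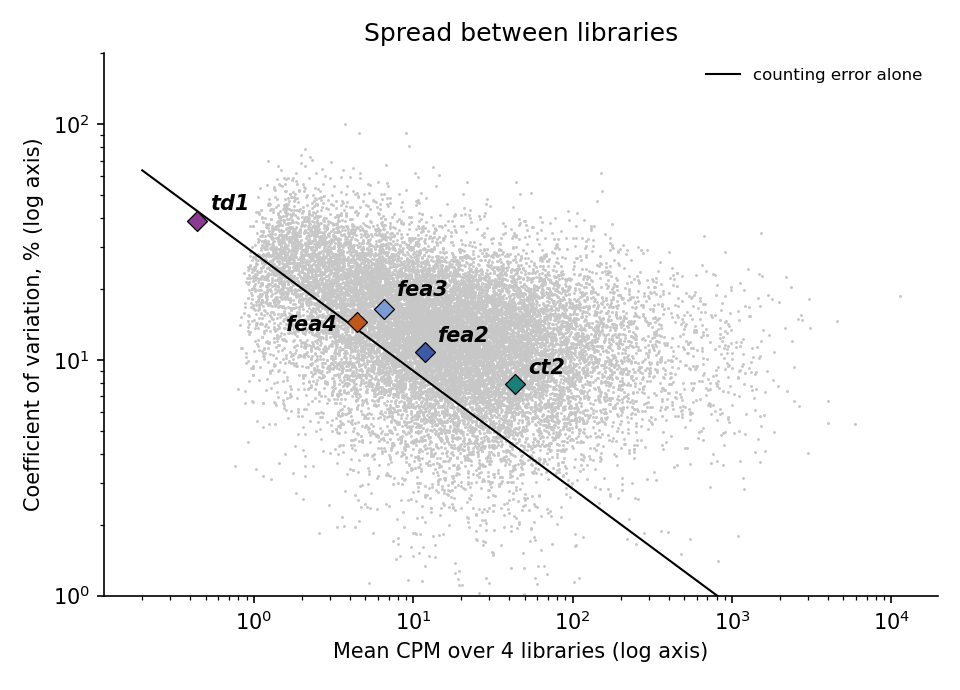
Coefficient of variation of CPM over 4 libraries, in percent, against mean CPM, both on log axes, for all expressed protein-coding genes (grey points) and the 5 genes (diamonds). The line is the spread that counting error alone gives: fea4 and td1 lie on or next to it, and ct2, fea2 and fea3 lie above it.

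The rest of the pathway was taken from a list by symbol, 32 further genes of peptide ligands, G protein subunits, TGA bZIP, WUSCHEL-type and KNOX homeobox factors and other shoot and ear meristem genes. Of these, 15 passed the expression filter (46.9%, where the share over all protein-coding genes was 57.6%), 6 had between 1 and 15 counts in all, and 11 had no count. Over all protein-coding genes in the files, 22.7% had no count. Among the 15, 3 lay above the median gene, 7 below and 5 did neither (edgeR, adjusted p of 0.05), where 25.6% of all genes tested lay above and 27.0% below. The list genes are all protein-coding, and of the 19606 protein-coding genes tested 5204 lay above and 4914 below. Of the 7 list genes called below, ra2 alone kept its call when every gene with a count was kept. The 15 genes had a median log2 ratio of reads of -0.99. Over all expressed protein-coding genes this median was 0.0046, which is near 0 by construction, since the ratio is taken to their own median. The list holds no gene matched to the names crn, bam or fcp1 or to a numbered CLE gene, so co-receptors and most peptide ligands were not analysed here.

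No ligand gene on the list had a count, as was the case for 22.7% of all protein-coding genes. The list's 3 ligand genes are those of the ESR family, CLE-type peptide genes named for the region of the endosperm around the embryo (GeneIDs 542448, 100037781 and 109943596). The detection limit of 3 counts over the 4 libraries was 0.0584 CPM.

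Among the G protein genes, the gene with the names GB1 and ZGB1 (GeneID 542310), a beta subunit, had 164, 193, 178 and 176 CPM in replicates 1 to 4. Its log2 ratio to the median gene was 3.61 ± 0.08, a 12.2-fold excess in reads, and it passed the test (edgeR, adjusted p = 7.08e-15). Of the 4 G protein genes, 2 passed the filter, this one and ct2, and both lay above the median gene in reads. Over all protein-coding genes 57.6% passed, and over all genes tested 25.6% lay above. The reads of GB1 (GeneID 542310) were the highest of the whole list. It was among the genes with a fractional value, which was rounded, so it was not part of the fit with whole values only. A second gene named GB1 (GeneID 100217119) and gpb1 had no count; their place in the G protein family rests on their names alone.

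Beside fea4 the list held 1 other TGA bZIP gene, lg2, a gene of the leaf blade and sheath boundary, which had 1 count in replicate 2 and none elsewhere. Of the WUSCHEL-type genes, wus1 had no count and wus2 had 6 counts over the 4 libraries. wox5B, the homeobox gene related to Arabidopsis WOX5 of the root quiescent centre, had 5.09, 7.09, 4.71 and 5.29 CPM and lay below the median gene with a log2 ratio of -1.42 ± 0.13 (edgeR, adjusted p = 0.0130). With replicate 1 left out the adjusted p was 0.0763, with replicate 3 left out 0.0959 and with replicate 4 left out 0.0536, so that call was lost in each of these cases (edgeR); it was kept without replicate 2. It was lost as well where no filter on low counts was set, at a log2 ratio of -0.55 (adjusted p = 1.0). In reads, fea3, fea4 and wox5B had mean levels between 4.41 and 6.55 CPM. The same span also held bif2 (5.28 CPM) and knox6 (4.63 CPM) of the list.

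KNOX genes, some of which keep shoot meristem cells undifferentiated, were read in part. kn1 itself reached 0.286 ± 0.0596 CPM, and knox4, which also carries the name gnarley1, had 15 counts as well; knox3 and knox8 had none. The other 5 of the 9 passed the filter, and 3 of them lay below the median gene and none above. Over all protein-coding genes 57.6% passed the filter, and over all genes tested 25.6% lay above and 27.0% below, so the share that passed is near the background. lg4 and lg4b had the most reads, at 11.8 ± 2.35 and 10.5 ± 1.39 CPM, and were called neither above nor below. knox6, knox7 and lg3 stood at 4.63 ± 0.588, 4.40 ± 0.404 and 3.60 ± 0.572 CPM and lay below. With no filter on low counts all 3 calls were lost, at log2 ratios of -0.80, -0.88 and -1.16 (edgeR, adjusted p = 1.0, 1.0 and 0.364).

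Other genes known from the shoot and ear differed widely, and 8 of 13 passed the filter, with 2 above the median gene, 3 below and 3 neither. Over all protein-coding genes 57.6% passed, and over all genes tested 25.6% lay above and 27.0% below. rel2, which encodes a TOPLESS-type co-repressor, had 180, 132, 136 and 144 CPM and a log2 ratio of 3.34 ± 0.09 (edgeR, adjusted p = 7.74e-14). ids1, an AP2-type transcription factor gene of spikelet meristems, stood at 51.1 ± 2.93 CPM, with a log2 ratio of 1.81 ± 0.08. Its relative sid1 stood at 19.6 ± 1.45 CPM and was called neither above nor below. sid1 overlaps the annotated gene LOC103632144, so its reads are uncertain.

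The SBP-box gene ub2, the LOB domain gene ra2 and the protein kinase gene bif2 lay below, at 3.71 ± 0.304, 2.69 ± 0.153 and 5.28 ± 1.20 CPM. The call of bif2 was lost without replicate 4 (edgeR, adjusted p = 0.0736), and with no filter on low counts those of bif2 and ub2 were lost, at log2 ratios of -0.61 and -1.13 (adjusted p = 1.0 and 0.501). ub3 and the growth coactivator gene GIF1 stood at 7.42 ± 0.984 and 7.89 ± 0.706 CPM and were called neither above nor below. The inflorescence branching genes ra1, BA1 and bd1 had no count in any library, and ra3 and abph1 had 2 counts each.

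**Figure D4:**
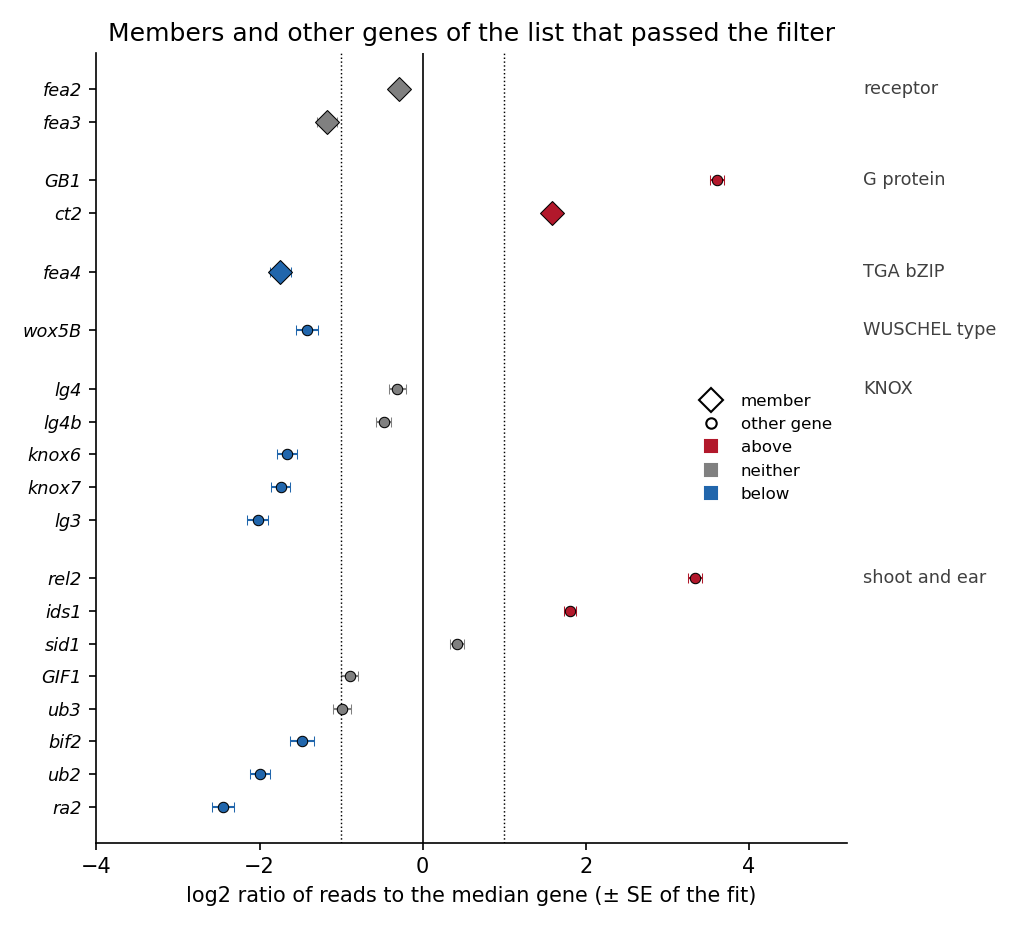
log2 ratio of reads to the median expressed protein-coding gene, with the SE of the fit, for the 19 genes of the list that passed the expression filter, ordered by role. Diamonds are ct2, fea2, fea3 and fea4, dotted lines mark a 2-fold difference, and colours give the edgeR call: ct2, GB1, rel2 and ids1 lie above, and 8 genes, fea4 among them, lie below.

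With 1 condition, no pattern across conditions could be compared, so the genes nearest in level were looked up instead among 216 protein-coding genes with a symbol of their own. The measure was the root mean square difference of log2 (CPM + 0.5) over the 4 libraries. dhar1 lay nearest to ct2 (0.07), TENA2 to fea2 (0.12), sbp3 to fea3 (0.13), pho1 to fea4 (0.14) and pht12 to td1 (0.22). The next nearest were pht2, sm1, dhar4, umc1467 and the gene with GeneID 100272838, in the same order.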

How the data were processed

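The deposited values are estimated counts per NCBI GeneID for each of 4 libraries and were not normalized. The submitters' processing notes name STAR 2.7.10b, HTSeq, UMI-tools, SAMtools, deepTools and Trimmomatic (0.36 and 0.39). Not given in the sources used here are the genome build, the annotation, each tool's settings, the strand setting and whether molecular tags were collapsed; if they were not, several reads can stem from 1 molecule. Fractional values occurred in 3062 genes (tolerance 1e-06) and were rounded. Another table with 5 columns that match no sample was not used.

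Names came from the RefSeq table, which held 48127 of the 48174 GeneIDs. Of the alias matches, 3 were left out as other genes (a catalase, a plastid dehydrogenase and a defensin-like gene), and 1 list gene is not reported here. Members and lists were chosen with earlier results of these data known. The text names all members and, by role, the list genes with the highest and lowest levels, no count or a call.

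An intercept-only quasi-likelihood model (edgeR 4.0.16, R 4.3.3) took as offset, in each library, the median of the expressed protein-coding genes. Its F statistic compared the deviance at the closer 2-fold limit with that of the fit. This statistic was calculated from the fit and not by a test function of edgeR. The planned length term could not be used, because no transcript or protein length was at hand, so all ratios are of reads. On simulated counts for 21046 genes, 40 of 40 genes were called at 0.25-fold, 40 of 40 at 3-fold and 0 of 40 at 1.5-fold, while 4 of 8094 genes simulated within 2-fold were called. Library pairs differed by a chi-square of 6.99 to 19.7 per gene, more than the sampling noise, so none was a copy or resampling of another. That all 4 are biological replicates rests on their labels. Alternatives were DESeq2 1.42.0, limma 3.58.1 (prior count 0.5), TMM, other filters and references, no 2-fold threshold, whole values only and each replicate left out. Figures were drawn with matplotlib 3.10.9.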

Additional observations from a re-analysis of the deposited data

How the results depend on the processing

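No paired analysis was possible because the samples form 1 group. Per-length values were planned and not run, because no length was at hand. With every gene that had a count, the log2 ratio to the median gene was 0.57 for fea2, 0.39 for lg4b and 0.55 for lg4 (all negative otherwise), -0.88 for fea4, which lost its call, and -4.23 for td1, which was then tested and lay below (edgeR, adjusted p = 4.87e-13); wox5B, lg3, knox7, knox6, bif2 and ub2 lost their calls below too, and sid1 gained one above (1.29, adjusted p = 0.00298). In that fit 8741 of the 30723 genes tested lay above and 12776 below. Without the 2-fold threshold fea2 (-0.29) and fea3 (-1.17) also lay below, which made 3 of the 4 expressed genes below. Of the 15 further pathway genes that passed the filter, 11 then lay below (7 with the threshold). Over all 21046 genes tested, 9309 then lay above and 9906 below. Under a minimum of 1 CPM, a median gene of all classes, TMM, whole values only, DESeq2 and limma, the 4 expressed genes kept their direction and their side of the threshold. With TMM library sizes the coefficient of variation was 11.2% for ct2, 7.73% for fea2, 18.6% for fea3, 17.6% for fea4 and 38.6% for td1. Counting error alone gives 13.5% for fea4, so how close its spread comes to counting error depends on the library sizes used. Leaving out each replicate gave log2 ratios of 1.54 to 1.66 for ct2, -0.30 to -0.21 for fea2, -1.26 to -1.10 for fea3 and -1.82 to -1.67 for fea4. No call changed among these 4 genes. td1 was not tested in these fits, and the plain mean of its log2 ratios over the libraries kept ran from -5.32 to -4.82. The coefficients of variation then ran from 4.98% to 9.67% for ct2, 4.71% to 13.2% for fea2, 10.6% to 20.1% for fea3, 3.83% to 17.3% for fea4 and 15.1% to 47.3% for td1. The few counts limit td1 most.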
